A study of Mus musculus with 8 samples.

Results

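Genes of fatty acid oxidation and ketone body use were followed in whole mouse kidneys, wild-type or with conditional knockout of the mitochondrial enzyme COX10. They are 31 named genes, matched by symbol to Ensembl identifiers in the count tables, out of 47643 genes listed there, and all 31 held enough reads to be tested. By role they are 5 genes of uptake, activation and storage, 4 of the carnitine shuttle, 12 of mitochondrial β-oxidation, 3 of electron transfer to the respiratory chain, 4 of peroxisomal oxidation, 2 of ketone body use, and 1 regulator, Ppara.

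The conditional knockout group (cKO) had 4 kidney libraries of genotype Six2-Cre;Cox10-fl/fl, and the wild-type group (WT) had 4. Replicate 2 of each group was aged 2.5 months and the others 3 months. COX10 makes a heme intermediate that cytochrome c oxidase, the last complex of the respiratory chain, cannot be built without. Six2-Cre acts in nephron progenitors, so the tubule and glomerular epithelium descending from them is recombined, whereas stroma, vessels, leukocytes and collecting ducts come from other lineages. The labels do not say whether WT kidneys carried the Cre or a floxed allele, nor that the libraries of a group came from separate animals. If they did not, the p-values below measure only the spread between these libraries.

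Fatty acids enter a cell through carriers such as CD36, are bound by FABP proteins, and are either stored in lipid droplets or activated to acyl-CoA esters. The carnitine shuttle moves long-chain esters into mitochondria, where β-oxidation shortens them in repeated cycles of dehydrogenation, hydration, a second dehydrogenation and thiolysis. Electrons from the first step pass through electron transfer flavoprotein to ubiquinone, and peroxisomes shorten the chains that mitochondria take poorly. Ketone bodies made mainly in liver are burned in kidney and other tissues by BDH1 and then OXCT1. The proximal tubule, the most energy-demanding stretch of the nephron, runs largely on these fuels, and PPARα is the nuclear receptor best known for switching on the enzymes.

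Library totals ran from 9454830 to 15838026 counts. Levels are given as CPM, read counts scaled to a common library size, and Cox10 itself stood at 10.9 to 22.3 CPM in cKO and at 19.2 to 24.6 CPM in WT libraries, which overlap. The labels do not say which exons are removed, so a count over the whole gene does not check the genotype. Y-linked genes had 0 reads in cKO 1, cKO 2, cKO 4 and WT 1, and 829 to 1707 reads in cKO 3, WT 2, WT 3 and WT 4, so the genotypes are unevenly split by sex. WT 3 and WT 4 were also low in short transcripts, and cKO 2 was high in them. The measure was the median deviation of 615 transcripts under 1000 bases minus that of 5375 over 3000 bases. It was -0.04, 0.87, 0.15 and 0.14 log2 units in cKO 1 to cKO 4. In WT 1 to WT 4 it was 0.30, 0.34, -1.13 and -0.70. The sample numbers in the file headers of cKO 4 and WT 4 are later than those of the other 6.

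The clearest change was in ketone body use, where both genes fell in cKO kidneys. Over all roles 7 members fell, namely Cd36, Fabp3, Acadm, Acadsb, Bdh1, Oxct1 and Ppara, and 1 rose, Plin2. The carnitine shuttle, electron transfer and peroxisomal members had no call in either direction. Calls are from edgeR's quasi-likelihood test with Benjamini-Hochberg adjustment over 13829 genes at a threshold of 0.05. The members were chosen with earlier results of these data known, so the shares that follow are descriptive. Of the members 22.6% were called lower, against 7.14% of all tested genes, and 3.23% higher, against 9.57%. In either direction the shares were 25.8% of members and 16.7% of all tested genes. The median log2 fold change of the 31 members was -0.34, against -0.01 over all tested genes, and 25 of the 31 lay below 0. Every cKO library was below every WT library for 9 members (29.0%, against 9.56% of all tested genes), and above for 2 (6.45%, against 13.1%).

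**Figure D1:**
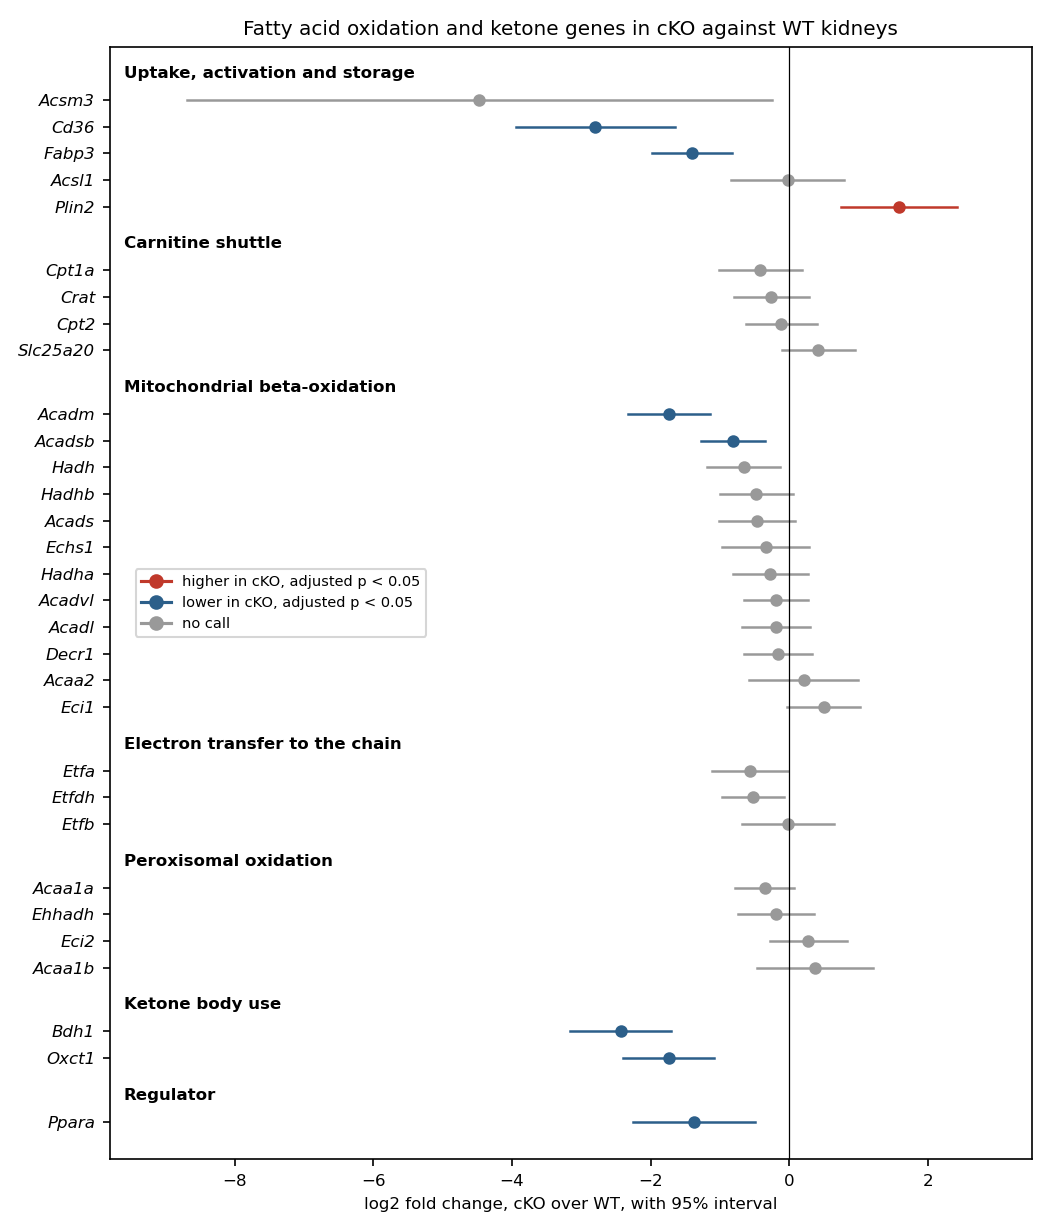
Log2 fold change of each of the 31 genes in cKO over WT kidneys (horizontal axis) with its 95% interval, grouped by role. Points left of 0 are lower in cKO. Blue marks the 7 genes called lower, red the 1 called higher and grey the 23 with no call. Acsm3 has by far the widest interval, from -8.69 to -0.25.

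Marker RNA of several cell types also differed between the groups, where 7.14% of all tested genes fell and 9.57% rose. Proximal tubule markers, of which 7 of 18 fell and 0 rose, summed to 12576, 4162, 11688 and 6483 CPM in cKO 1 to cKO 4, against 16567 to 18871 CPM in WT. Macrophage markers rose for 12 of 13 tested and summed to 477 to 845 CPM in cKO, against 120.3 to 243 CPM in WT. Fibroblast and matrix markers rose for 8 of 9 and fell for 1, with sums of 538 to 842 CPM in cKO and 138 to 233 CPM in WT. Collecting duct markers rose for 4 and fell for 1 of 8 tested, and summed to 1255 to 2722 CPM in cKO and 525 to 824 CPM in WT. Of 10 endothelial markers 3 fell, with sums of 261 to 397 CPM in cKO and 358 to 499 CPM in WT. Of 9 markers of the thick ascending limb and distal tubule 3 fell and 1 rose. Their sums were 2250 to 3279 CPM in cKO and 3839 to 6848 CPM in WT. In whole kidney, fewer proximal tubule cells and less RNA per cell cannot be told apart. What part these markers have in any result below was not tested.

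Both genes of ketone body use fell in cKO kidneys, Bdh1 5.40-fold and Oxct1 3.34-fold. BDH1 is the mitochondrial dehydrogenase that turns β-hydroxybutyrate into acetoacetate. Bdh1 (chromosome 16, 31422280 to 31458901, GRCm38) had 53.1, 22.5, 65.7 and 34.8 CPM in cKO 1 to cKO 4, against 165, 242, 301 and 244 CPM in WT 1 to WT 4. All 4 cKO libraries lay below all 4 WT libraries. Its log2 fold change was -2.43 with an SE of 0.34 (edgeR adjusted p = 0.000952), the smallest adjusted p among the 31 genes.

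OXCT1 activates acetoacetate with CoA taken from succinyl-CoA, the step that lets a tissue burn ketones. Oxct1 (chromosome 15, 4026383 to 4155344) had 647, 313, 548 and 322 CPM in cKO 1 to cKO 4, against 1571, 1478, 1549 and 1518 CPM in WT 1 to WT 4. The WT libraries were close together, with a mean of 1529 ± 40.3 CPM (SD, n = 4), and the cKO libraries averaged 458 ± 167 CPM (SD, n = 4). The log2 fold change was -1.74 with an SE of 0.30 (edgeR adjusted p = 0.0034). Among the cKO libraries Oxct1 ran in the order 1, 3, 4, 2 from high to low, as did the summed proximal tubule markers. Bdh1, the other gene of this role, ran in the order 3, 1, 4, 2.

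Of 8 other tested genes of ketone metabolism, 3 fell and 2 rose, where 7.14% of all tested genes fell and 9.57% rose. The list median log2 fold change was -0.57. Acat1, the mitochondrial thiolase that splits acetoacetyl-CoA at the end of ketone use and also works in isoleucine breakdown, had 314, 319.8, 257 and 164 CPM in cKO 1 to cKO 4, against 482, 1221, 1086 and 1125 CPM in WT 1 to WT 4 (log2 fold change -1.89, SE 0.35, edgeR adjusted p = 0.0045). With a term for the presence of Y-linked reads its call was lost (-1.51, edgeR adjusted p = 0.0532), the only one of the 5 calls in this list that was. Aacs, which activates acetoacetate in the cytosol for lipid synthesis, averaged 26.5 ± 6.27 CPM in cKO and 123 ± 56.3 CPM in WT (SD, n = 4 each), a log2 fold change of -2.21. WT 1, the WT library with no Y-linked reads, was the lowest of its group for both genes. The monocarboxylate transporters split: Slc16a1 (MCT1) rose, with 37.3 to 69.0 CPM in cKO and 14.6 to 25.1 CPM in WT, and Slc16a7 (MCT2) fell, with 24.7 to 44.9 CPM in cKO and 69.8 to 125 CPM in WT. Their log2 fold changes were 1.34 and -1.35, and neither pair of groups overlapped.

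**Figure D2:**
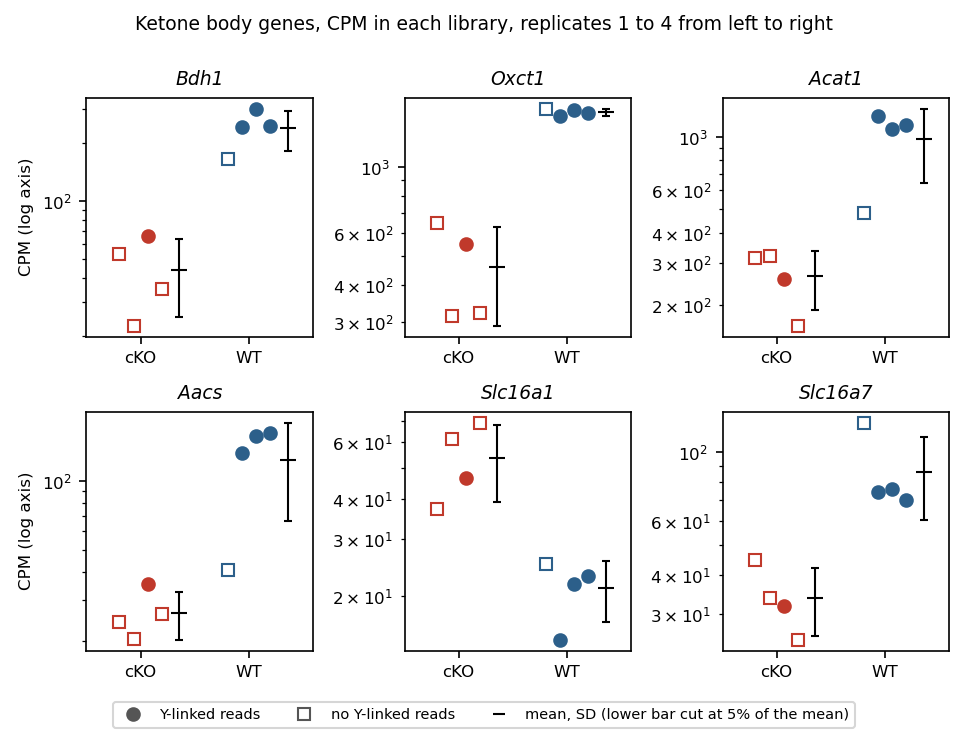
CPM on a log axis of 6 genes of ketone metabolism in each library, cKO left and WT right, replicates 1 to 4 in order. Filled circles are libraries with Y-linked reads, open squares those without, and black bars the mean and SD (n = 4). Bdh1, Oxct1, Acat1, Aacs and Slc16a7 lie lower in cKO and Slc16a1 higher, with no overlap between the groups in any panel.

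Among the uptake, activation and storage genes, the carrier and the binding protein fell in cKO kidneys while the lipid droplet coat rose. CD36 is a scavenger receptor that takes up long-chain fatty acids. Cd36 (chromosome 5, 17781690 to 17888801) had 83.0, 57.2, 169 and 46.4 CPM in cKO 1 to cKO 4, against 186, 643, 885 and 764 CPM in WT 1 to WT 4. The groups did not overlap, and the highest cKO library, cKO 3, came close to the lowest WT library, WT 1. The log2 fold change was -2.80 with an SE of 0.52 (edgeR adjusted p = 0.0051), or 6.96-fold lower. With a term for the presence of Y-linked reads it was -1.88 (edgeR adjusted p = 0.0058).

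FABP3, the fatty acid binding protein first known from heart, carries fatty acids through the cytosol. Fabp3 (chromosome 4, 130308595 to 130315463) had 33.4, 22.5, 36.3 and 33.6 CPM in cKO 1 to cKO 4, against 119, 92.3, 58.3 and 65.0 CPM in WT 1 to WT 4. WT 3 and WT 4, the libraries low in short transcripts, were the lowest WT libraries for this 823-base transcript, and both were still above all 4 cKO libraries. Fabp3 had a log2 fold change of -1.41 with an SE of 0.26 (edgeR adjusted p = 0.0051), and -1.75 with offsets for transcript length, a fit added after the data had been seen. Of 8 muscle markers only 3 had enough reads to be tested, and the whole list summed to 3.66 to 10.01 CPM in cKO and 3.27 to 12.5 CPM in WT, with Myh6 at 0 in all cKO libraries and Myl2 at 0 in all WT libraries. Of those 3 tested, 1 was called higher in cKO, Tnnt2 (cardiac troponin T), with 24 to 84 reads in cKO and 0 to 3 reads in WT. What part it has in the Fabp3 result was not tested.

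Perilipin 2 coats lipid droplets and is stabilised by them. Plin2 (chromosome 4, 86648386 to 86670060) had 140.2, 213, 201 and 545 CPM in cKO 1 to cKO 4, against 80.9, 113, 80.7 and 93.3 CPM in WT 1 to WT 4. The groups did not overlap, and cKO 4 was more than double the next cKO library. Plin2 had a log2 fold change of 1.58 with an SE of 0.38 (edgeR adjusted p = 0.0172), and without cKO 4 it was 1.01 (edgeR adjusted p = 0.03). With the Y-linked term the call was lost (1.48, edgeR adjusted p = 0.0909). Adipocyte markers summed to 64 to 362 CPM in cKO and 1.03 to 80.7 CPM in WT, with 1 of 6 tested members called, and their part in the Plin2 result was not tested.

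The activating enzymes had no call. Acsl1, the long-chain acyl-CoA synthetase, averaged 203 ± 59.1 CPM in cKO and 207 ± 124 CPM in WT (SD, n = 4 each), with a 95% interval of the log2 fold change from -0.84 to 0.79. Acsm3, a medium-chain acyl-CoA synthetase, was the most abundant of these 5 genes in WT kidneys, at 364 CPM per kilobase. It had 45.7, 4.24, 126 and 5.03 CPM in cKO 1 to cKO 4, against 1.90, 1129.6, 1509 and 1365 CPM in WT 1 to WT 4. The 4 libraries with no Y-linked reads were the 4 lowest, WT 1 lowest of all, and the call was missed with a log2 fold change of -4.47 and an SE of 1.81 (edgeR adjusted p = 0.133). Without WT 1, which left only WT libraries with Y-linked reads, it was called at a log2 fold change of -4.89 (edgeR adjusted p = 0.0209). DESeq2 called it with all libraries (adjusted p = 0.0173). These were the only 2 of 24 alternative fits that called Acsm3. With a term for the presence of Y-linked reads its log2 fold change was -0.30 (edgeR adjusted p = 0.971).

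Of 27 other tested genes of uptake, activation and storage, 6 rose and 4 fell, where 9.57% of all tested genes rose and 7.14% fell. The list median log2 fold change was 0.53. Lpl, the lipoprotein lipase that frees fatty acids from circulating triglyceride, fell to 44.8 to 153 CPM in cKO, against 449 to 1224 CPM in WT (log2 fold change -3.28, SE 0.44, edgeR adjusted p = 0.000824). Acsl4, a synthetase that prefers arachidonic acid, rose to 48.9 to 157 CPM in cKO, against 23.7 to 38.2 CPM in WT, and lost its call with the Y-linked term (edgeR adjusted p = 0.0658). The medium-chain synthetases Acsm5 and Acsm1 both fell by 1.64 on the log2 scale. Acsm5 averaged 35.6 ± 17.1 CPM in cKO and 111 ± 25.2 CPM in WT, and Acsm1 69.0 ± 32.4 CPM in cKO and 215 ± 60.2 CPM in WT (SD, n = 4 each). With the Y-linked term 4 of the 10 calls in this list held, 3 lower and 1 higher, among them Lpl, Acsm5 and Acsm1.

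None of the 4 carnitine shuttle genes was called, and for each of them the groups overlapped. Cpt1a, the rate-setting outer membrane transferase, was the most abundant of them per kilobase, at 61.6 CPM per kilobase in cKO and 82.3 in WT. It had 269.5, 191, 271 and 332 CPM in cKO 1 to cKO 4, against 231, 324, 415 and 451 CPM in WT 1 to WT 4. WT 1 lay among the cKO libraries, and the log2 fold change of -0.42 had a 95% interval from -1.02 to 0.18 (edgeR adjusted p = 0.312). For the carrier Slc25a20, the inner transferase Cpt2 and the short-chain transferase Crat, log2 fold changes were 0.42, -0.11 and -0.26. The 95% intervals of these 3 genes reached from -0.79 to 0.94 between them, so that changes past 2-fold in either direction lay outside. Cpt1b, the muscle-type isoform that belongs to another list, fell to 6.09 to 15.0 CPM in cKO, against 25.1 to 30.4 CPM in WT (log2 fold change -1.34, edgeR adjusted p = 0.0072).

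Within mitochondrial β-oxidation, 2 of 12 genes fell, Acadm and Acadsb, where 7.14% of all tested genes fell. Both encode acyl-CoA dehydrogenases, as do Acadvl, Acadl and Acads, which had no call. MCAD, the product of Acadm, takes medium-chain esters, and its deficiency is the best known inherited disorder of fatty acid oxidation. Acadm (chromosome 3, 153922357 to 153944632) had 548, 332, 453 and 336 CPM in cKO 1 to cKO 4, against 1443, 1614, 1359.7 and 1137 CPM in WT 1 to WT 4. The lowest WT library was more than double the highest cKO library. The log2 fold change was -1.74 with an SE of 0.27 (edgeR adjusted p = 0.002), or 3.33-fold lower.

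ACADSB works on short branched-chain esters from isoleucine rather than on straight fatty acids. Acadsb (chromosome 7, 131410601 to 131448944) had 105, 71.2, 79.0 and 60.4 CPM in cKO 1 to cKO 4, against 153, 141, 137 and 125 CPM in WT 1 to WT 4. The groups did not overlap, with a log2 fold change of -0.82 and an SE of 0.21 (edgeR adjusted p = 0.0236). The call was lost without WT 4, cKO 3 or cKO 4, with adjusted p of 0.0511, 0.0595 and 0.0784.

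The dehydrogenases for other chain lengths had no call. Acadvl, Acadl and Acads, for very long, long and short chains, had log2 fold changes of -0.20, -0.19 and -0.46 and overlapping groups. Acadm made up 33.8 ± 4.69% of the CPM per kilobase of the 5 dehydrogenases in cKO and 58.4 ± 5.40% in WT (SD, n = 4 each). The shares were 29.1 to 39.7% in cKO and 51.5 to 64.8% in WT, so they did not overlap.

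The later steps of the cycle were not called. Hadh, the 3-hydroxyacyl-CoA dehydrogenase for medium and short chains, averaged 418 ± 80.5 CPM in cKO and 659 ± 66.7 CPM in WT (SD, n = 4 each). All its cKO libraries were below all its WT libraries, with a log2 fold change of -0.66 and an edgeR adjusted p of 0.083. The trifunctional protein, which runs the last 3 steps on long chains, is built from Hadha and Hadhb, with log2 fold changes of -0.27 and -0.48. Hadhb had fractional counts in all 8 libraries, which leaves its values uncertain. These 2 genes lie head to head on chromosome 5, their RefSeq start sites 273 bases apart, and Hadhb was at 3.39 ± 0.576 times the level of Hadha per kilobase in cKO and 3.85 ± 0.879 times in WT (SD, n = 4 each). The hydratase Echs1, the thiolase Acaa2 and the reductase Decr1 had log2 fold changes of -0.34, 0.21 and -0.17. Eci1, an isomerase for unsaturated chains, had 128, 137, 134 and 129 CPM in cKO 1 to cKO 4, against 126, 111, 60.3 and 77.2 CPM in WT 1 to WT 4. Each cKO library was above each WT library, by a narrow margin at WT 1. It was not called (log2 fold change 0.49, edgeR adjusted p = 0.176), its transcript has 1137 bases, and with offsets for transcript length its log2 fold change was 0.20.

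**Figure D3:**
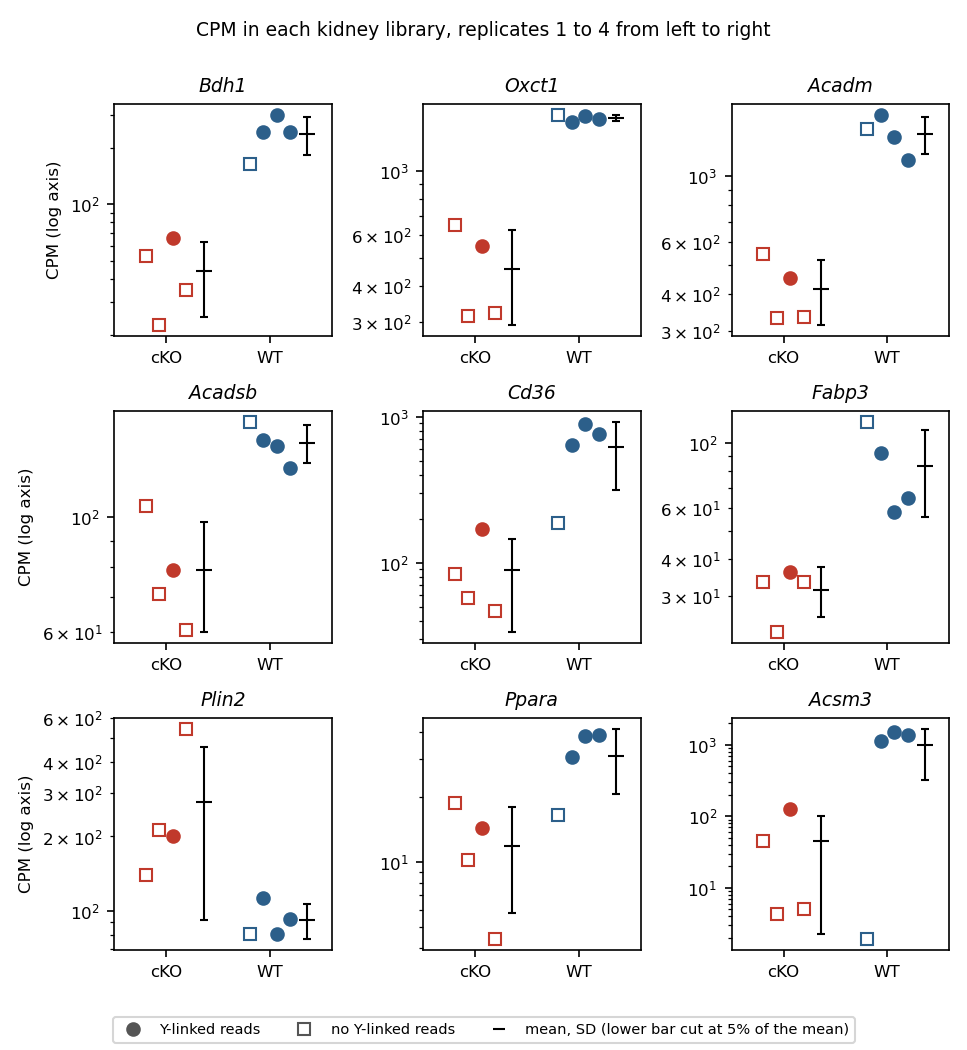
CPM on a log axis of the 8 called genes and Acsm3 in each library, cKO left and WT right, replicates 1 to 4 in order. Filled circles are libraries with Y-linked reads, open squares those without, and black bars the mean and SD (n = 4). The groups separate in 7 panels and overlap for Ppara and Acsm3, where WT 1 lies with the cKO libraries.

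The stretches before the start sites of Acadm, Cd36 and Plin2 are shown because these are the called members whose RefSeq promoter holds a copy of AGGTCA, the half-site that PPARα and other nuclear receptors bind. They are the 250 bases before the start (RefSeq, GRCm38.p6), read 5′ to 3′ on the gene's strand, with capitals marking the half-site, here on the opposite strand. Acadm is chr3:153944644-153944893, Cd36 is chr5:17835897-17836146 and Plin2 is chr4:86670060-86670309, all on the minus strand. The Cd36 window lies inside the gene coordinates given above, and the stretch before the gene's outer end at 17888801 was not searched.
Acadm: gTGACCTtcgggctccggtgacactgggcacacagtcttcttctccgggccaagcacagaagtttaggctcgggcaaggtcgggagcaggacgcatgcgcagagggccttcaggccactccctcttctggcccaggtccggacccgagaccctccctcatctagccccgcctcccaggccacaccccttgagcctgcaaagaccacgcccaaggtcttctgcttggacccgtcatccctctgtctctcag
Cd36: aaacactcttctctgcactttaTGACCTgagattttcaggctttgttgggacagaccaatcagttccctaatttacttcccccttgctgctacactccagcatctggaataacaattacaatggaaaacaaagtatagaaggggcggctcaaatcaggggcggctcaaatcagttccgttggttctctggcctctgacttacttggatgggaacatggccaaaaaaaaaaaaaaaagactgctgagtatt
Plin2: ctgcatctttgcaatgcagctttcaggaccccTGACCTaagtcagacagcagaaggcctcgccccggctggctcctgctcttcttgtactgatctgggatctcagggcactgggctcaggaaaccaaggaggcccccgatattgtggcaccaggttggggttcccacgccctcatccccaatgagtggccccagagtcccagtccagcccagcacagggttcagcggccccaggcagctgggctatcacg
The match begins 249 bases before the start in Acadm, 228 in Cd36 and 218 in Plin2. Of 28 members with a RefSeq window of 250 bases before to 50 after the start, 6 held AGGTCA on either strand (21.4%), against 16.3% of all 32851 windows. The uncalled members with it were Acadvl, Cpt1a and Echs1, and the called members Fabp3, Acadsb, Bdh1, Oxct1 and Ppara had none in this window. Pairs of AGGTCA in the same direction with 1 base of any kind between them, the form PPARα binds with its partner RXR, were in 0 member windows and 0.04% of all windows. The GC box GGGCGG was in 21 of the 28 members (75%), against 35.7% of all windows. These shares differ in unit, since members were counted by gene over 30 windows and the background by single window. The background was also not limited to tested genes. A match is a description of these letters, and no match says only that they are not in this window.

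Electron transfer genes had no call. In 2 of 3 every cKO library was below every WT library, as in 9.56% of all tested genes. Etfa and Etfb encode the 2 subunits of electron transfer flavoprotein, and Etfdh the dehydrogenase that hands its electrons to ubiquinone. Etfb was the most abundant per kilobase and had 571, 586, 638 and 641 CPM in cKO 1 to cKO 4, against 796, 835, 337 and 503 CPM in WT 1 to WT 4. The 2 WT libraries low in short transcripts were the lowest for this 893-base transcript, and the log2 fold change was -0.02 (95% interval -0.69 to 0.64), or -0.34 with length offsets. Its expected counts were fractional in all 8 libraries, so part of its reads were shared with other genes and its values are uncertain. Etfa averaged 295 ± 65.3 CPM in cKO and 436 ± 73.4 CPM in WT, and Etfdh 128 ± 14.5 CPM in cKO and 184 ± 33.4 CPM in WT (SD, n = 4 each). Their log2 fold changes were -0.56 and -0.53, with edgeR adjusted p of 0.138 and 0.102. With offsets for transcript length, added after the data had been seen, 11 members were called lower, against 11.1% of all tested genes. Those that gained a call were Hadh, Hadhb, Etfa, Etfdh and Acaa1a, and Acadsb lost its call (edgeR adjusted p = 0.0542).

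The 4 peroxisomal members were not called, and their log2 fold changes lay between -0.35 and 0.37. Ehhadh, the bifunctional enzyme that hydrates and dehydrogenates chains in the peroxisome, was the most abundant of them per kilobase. It had 753, 525, 539 and 564 CPM in cKO 1 to cKO 4, against 613, 552, 788 and 768 CPM in WT 1 to WT 4. The groups overlapped, with a log2 fold change of -0.19 and a 95% interval from -0.74 to 0.35. The isomerase Eci2 was at 125 to 188 CPM in cKO and 95.1 to 186 CPM in WT. Acaa1a and Acaa1b are paired thiolase genes whose transcripts were 96.0% identical over 1450 aligned bases, and fractional counts in all 8 libraries make the split between them uncertain. Acaa1a averaged 137 ± 10.8 CPM in cKO and 176 ± 28.3 CPM in WT, and Acaa1b 331 ± 157 CPM in cKO and 256 ± 77.3 CPM in WT (SD, n = 4 each).

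Of 18 other peroxisomal genes tested, 6 fell and 0 rose, where 7.14% of all tested genes fell and 9.57% rose. The list median log2 fold change was -0.72. With the Y-linked term only 1 of the 6 calls held, that of Pecr. Nudt19, a CoA-cleaving hydrolase prominent in kidney, fell to 84.3 to 292 CPM in cKO, against 354 to 1733 CPM in WT, a log2 fold change of -2.52 (edgeR adjusted p = 0.0094), or -1.78 and no call with the Y-linked term (edgeR adjusted p = 0.0886). The trans-enoyl reductase Pecr fell to 81.5 to 246 CPM in cKO, against 292 to 736 CPM in WT, with a log2 fold change of -1.81. Amacr, the racemase for branched chains, and Acox3, the oxidase for them, fell by 2.32 and 2.04 on the log2 scale. For both, cKO and WT libraries overlapped at WT 1, and neither was called with the Y-linked term (edgeR adjusted p of 0.0524 and 0.0904).

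Among 24 other mitochondrial oxidation genes, 8 fell and 3 rose, where 7.14% of all tested genes fell and 9.57% rose. The list median log2 fold change was -0.65. With the Y-linked term 3 of the 8 falls held, Cpt1b, Acad9 and Acad12, and 0 of the 3 rises. Acad9, a dehydrogenase that also helps assemble complex I, fell to 36.0 to 71.8 CPM in cKO, against 131 to 154 CPM in WT (log2 fold change -1.44, SE 0.25, edgeR adjusted p = 0.0032). Its counts were fractional in 7 of 8 libraries. Ivd, the isovaleryl-CoA dehydrogenase of leucine breakdown, fell by 1.62 on the log2 scale, to 162 ± 68.3 CPM in cKO against 496 ± 128 CPM in WT (SD, n = 4 each). Acad12 fell by 1.25, with fractional counts in all 8 libraries. Several of the 8 act in amino acid breakdown rather than on fatty acids, among them Ivd, Hibadh, Pcca and Mut, the last 3 named after their values were seen. These 4 all lost their call with the Y-linked term, with edgeR adjusted p from 0.0608 to 0.156.

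Ppara, which encodes PPARα, was the lowest of the 31 genes in level per kilobase in both groups. Ppara (chromosome 15, 85734983 to 85802819) had 18.6, 10.2, 14.3 and 4.37 CPM in cKO 1 to cKO 4, against 16.5, 30.5, 38.4 and 38.5 CPM in WT 1 to WT 4. WT 1 lay below cKO 1, so the groups overlapped. The log2 fold change was -1.38 with an SE of 0.40 (edgeR adjusted p = 0.0374). Of the 8 fits that left out 1 library, the call held in 2, without WT 1 and without cKO 1, and log2 fold changes ran from -1.69 to -1.10.

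Of 16 other regulators tested, 6 fell and 0 rose, where 7.14% of all tested genes fell and 9.57% rose. The list median log2 fold change was -0.82. With the Y-linked term 0 of the 6 calls held, with edgeR adjusted p from 0.0649 to 0.321. Ppargc1a, the coactivator PGC-1α that works with PPARα on oxidation genes, fell to 10.3 to 25.3 CPM in cKO, against 30.4 to 54.7 CPM in WT (log2 fold change -1.35, SE 0.30, edgeR adjusted p = 0.0123). The orphan receptor Esrrg fell to 13.1 to 33.0 CPM in cKO, against 42.1 to 63.6 CPM in WT, a log2 fold change of -1.31. Lpin1, a phosphatidate phosphatase that is also a coactivator, and Sirt3, the mitochondrial deacetylase, fell by 1.35 and 0.85.

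Of 17 known PPARα targets outside the oxidation cycle that were tested, 7 rose, 0 fell and 10 had no call, where 9.57% of all tested genes rose. The median log2 fold change was 1.05. With the Y-linked term 2 of the 7 calls held, Acot1 among them, while Ucp2, Vnn1, Cyp4a12b, Pdk4 and Txnip lost theirs, with edgeR adjusted p from 0.0557 to 0.251. Ucp2, an inner membrane carrier, rose to 113 to 395 CPM in cKO, against 52.6 to 100.4 CPM in WT (log2 fold change 1.52, SE 0.36, edgeR adjusted p = 0.0154). Vnn1, the pantetheinase vanin 1, rose to 187 to 317 CPM in cKO, against 89.9 to 166 CPM in WT, a log2 fold change of 1.05. The acyl-CoA thioesterase Acot1 and the fatty acid hydroxylase Cyp4a12b rose by 1.53 and 2.01 on the log2 scale. Both had fractional counts in all 8 libraries, so their reads were shared with close relatives. Cyp4a12a, also with fractional counts in all 8, had a log2 fold change of -2.48 and no call (edgeR adjusted p = 0.178). Pdk4 and Txnip also rose, and are named after their values were seen.

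**Figure D4:**
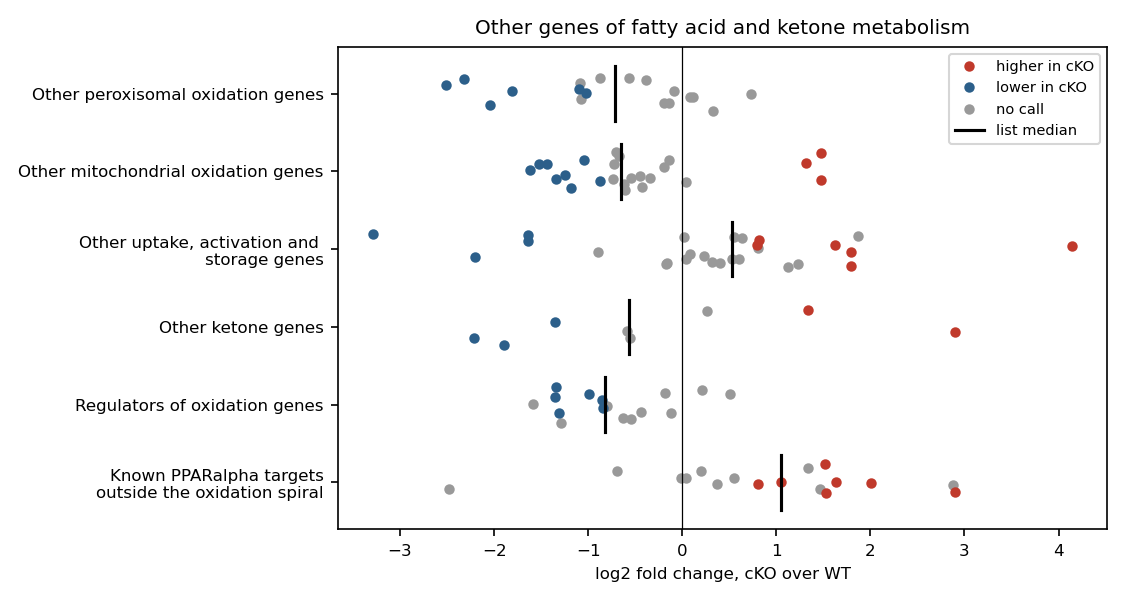
Log2 fold change in cKO over WT of each tested gene (points) in 6 lists of related genes outside the 31, with the list median as a vertical bar. Red marks genes called higher in cKO, blue lower and grey no call. Medians are at -0.72, -0.65, 0.53, -0.57, -0.82 and 1.05 from top to bottom, and some genes, Mgll among them, appear in 2 lists.

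Some of these calls changed once the uneven split by Y-linked reads entered the fit. With a term for the presence of Y-linked reads, 5 members kept their call, Cd36, Fabp3, Acadm, Bdh1 and Oxct1, all lower in cKO, while Plin2, Acadsb and Ppara lost theirs with adjusted p of 0.0909, 0.0687 and 0.265. That fit called 16.1% of members, against 6.8% of all tested genes in either direction and 1.63% lower. Among libraries with no Y-linked reads, which set 3 cKO kidneys against WT 1 alone, Fabp3 and Bdh1 were called, 6.45% of members against 0.868% of all tested genes. Among libraries with them, which set cKO 3 alone against 3 WT kidneys, Cd36 was called, 3.23% of members against 3.47%. Both contrasts come from a fit of 4 groups, in which the lone library is assumed to vary like the others. Bdh1 had log2 fold changes of -2.16 without and -2.00 with Y-linked reads, Acadm -1.83 and -1.60, Oxct1 -1.88 and -1.47, and Cd36 -1.58 and -2.18. Fabp3 had -1.99 without and -0.99 with Y-linked reads, and was not called with them (edgeR adjusted p = 0.285). Acsm3 pointed in opposite directions, 3.27 without and -3.41 with Y-linked reads. The interaction of genotype with Y-linked reads was called for 0 members by edgeR and for 0.0651% of all tested genes. Unadjusted, Acsm3 was the only member that passed 0.05 in this test, and its edgeR adjusted p was 0.832.

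**Figure D5:**
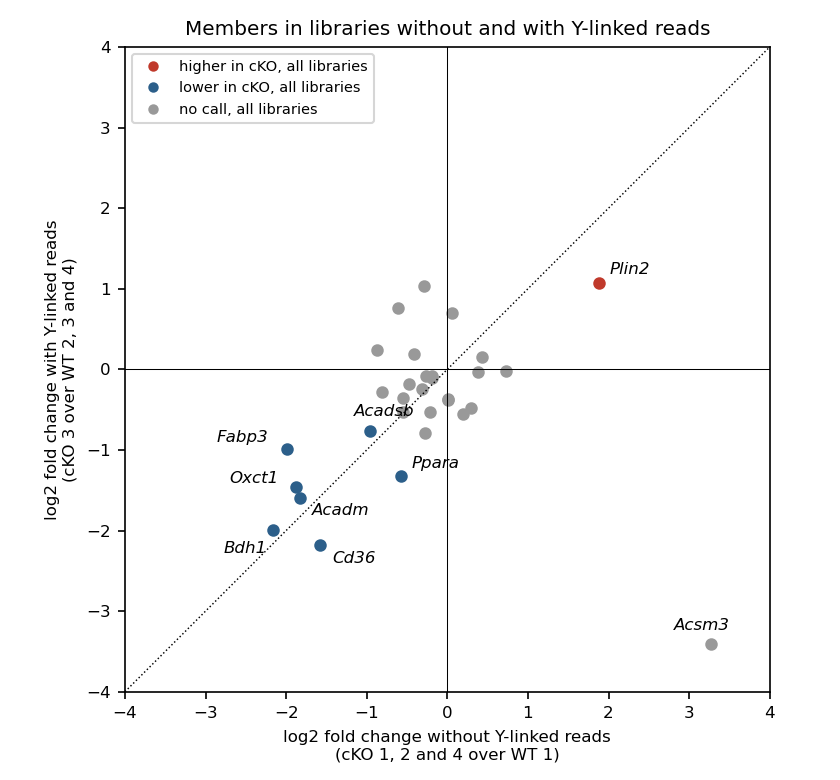
Log2 fold change of each of the 31 genes in cKO over WT, among libraries with no Y-linked reads (horizontal axis) and among those with them (vertical axis), with the dotted line marking equality. Colours give the call over all 8 libraries. The 7 genes called lower lie below 0 on both axes, Plin2 above 0 on both, and Acsm3 at 3.27 and -3.41 in the lower right.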

How the data were processed

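RNA was taken from whole kidneys and sequenced from stranded mRNA libraries, per the labels' protocols, as 4 cKO and 4 WT samples. The deposited values are expected counts per gene, which the authors made with STAR and RSEM on mm10, per the submitters' processing notes. The tool versions, annotation and strand setting were not given in the sources used here. RSEM divides reads shared by similar genes, so fractional counts mark genes whose values are uncertain.

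Expected counts were rounded and analysed in R 4.3.3 with edgeR 4.0.16: TMM scaling, genes kept by filterByExpr (13829 of 47643), the robust quasi-likelihood test of cKO over WT, and Benjamini-Hochberg adjustment over all kept genes at 0.05. The test was run on simulated data first. CPM use TMM-scaled library sizes, errors are SD over 4 libraries, and 95% intervals come from the quasi-likelihood SE. CPM per kilobase uses the longest principal transcript of GENCODE M21 on GRCm38, the build of all gene coordinates. A library was counted as having Y-linked reads from 10 counts up. Promoter windows are from RefSeq, in which 28 of 31 members were matched. No 2 libraries agreed within sampling noise. Library totals of 9454830 to 15838026 counts limit the precision of genes with few reads.

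The members and all gene lists were chosen with earlier results of these data known. Per-library values are given for called members, both ketone genes, Ppara and the most abundant member of each role per kilobase. Each other list is represented by up to 4 called genes with the smallest adjusted p. Some genes of these lists are counted there but not reported singly here. Alternatives were DESeq2 1.42.0, other scaling and filters, a replicate block, a term for Y-linked reads, contrasts within those classes, leaving out libraries and, added after the data had been seen, offsets for transcript length. Only some same-numbered libraries deviated together, so numbers were not treated as pairs.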

Additional observations from a re-analysis of the deposited data

How the results depend on the processing

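Over 24 alternatives the 8 called members kept their direction in 192 of 192 values and their call in 155. Uncalled members changed sign in 32 of 552 and gained a call in 8. The alternatives refit the same libraries or subsets of them, so these values are not independent of the main fit that picked the called members. Main counts were 2310 genes, with 7 members lower and 1 higher. With a term for Y-linked reads 941 genes were called and 0 members higher. Within libraries without Y-linked reads 120 genes were called, with 2 members lower and 0 higher, and within those with them 480 genes, with 1 lower and 0 higher. Without the 2.5-month pair 1397 genes were called, and without WT 4 and cKO 4 there were 568, with 0 members higher. Transcript length offsets gave 11 members lower, and together with the Y-linked term 1265 genes and 0 members higher. Leaving out 1 library at a time gave 1155 (without cKO 4) to 3093 genes (without WT 1), 5 to 8 members lower and 1 to 1 higher. Cd36, Fabp3, Acadm, Bdh1, Oxct1 and Plin2 were called each time. The difference of the genotype effect by Y-linked reads was called for 9 genes, and for 42 with no count filter. Scaling by library size alone put the median log2 fold change of all genes at 0.145 and ended the calls of Acadsb and Ppara. The cause of these shifts was not tested.

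With the replicate number as a block, 2208 genes were called, with 6 members lower and 1 higher, and the pairing ended the call of Ppara. Residuals of same-numbered libraries correlated at -0.08, 0.28, 0.12 and 0.00. DESeq2 called 3165 genes. Genes at a few CPM, such as Ppara in cKO 4, have the least depth behind their values.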
